A study of Homo sapiens with 8 samples.

Results

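Open chromatin sites that lay close together and away from transcription starts were studied in LX-2 cells, a human line of immortalised hepatic stellate cells. The sites were chosen by measured values, namely the presence of a peak in every one of 8 ATAC-seq peak lists. Peaks of the lists were merged into 102366 regions, of which 24246 had a peak in all 8 lists, and 14223 of these were distal, with a centre more than 1 kb from any annotated transcription start. Distal regions separated by a gap of at most 12 kb and 500 bp were joined into chains, and the 19 chains of 5 or more regions were kept. They held 102 regions, or 0.717% of the distal regions found in all lists. ATAC-seq reads out accessible DNA by where a transposase inserts sequencing adapters. LX-2 cells of the wild type genotype were seeded on hydrogel of about 2 kPa (soft) or 40 kPa (stiff) and collected after 2 days (D2) or 4 days (D4). Each of the 4 combinations (D2 soft and stiff, D4 soft and stiff) had 2 replicate libraries, all from this single line.

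Distal open sites include enhancers, stretches of DNA that are bound by transcription factors and can act on a promoter over a distance. Several of them close together often flank genes that define a cell type or respond to signals, although a definition of such clusters by activator or histone marks needs data that were not used here. In activated stellate cells, the fibroblast-like cells that lay down matrix in the injured liver, AP-1 factors (dimers of JUN and FOS family proteins) and TEAD factors (the DNA-binding partners of YAP and TAZ) are known regulators of such elements.

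The sequences below, read from the hg19 (GRCh37) genome on its forward strand, show what the strongest member of each of 6 large chains looks like at its summit, as 200 bp around the summit of the best-ranked peak. Regions are named by their chain and their order along the chromosome, so that PRKCH_3 is the third region of the PRKCH chain. Capitals mark matches on either strand to TGACTCA or TGAGTCA (AP-1), GGAATG (TEAD) or TGTGGT (RUNX), and the matches do not overlap. PRKCH_3, TGM2_5 and TMEM51_3 lie in introns, and the other 3 lie between genes.
PRKCH_3, chr14:62020639-62020838: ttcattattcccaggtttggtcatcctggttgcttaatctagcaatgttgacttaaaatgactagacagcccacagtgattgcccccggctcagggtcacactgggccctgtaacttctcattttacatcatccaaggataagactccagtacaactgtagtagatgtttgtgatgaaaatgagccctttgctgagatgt
TGM2_5, chr20:36772726-36772925: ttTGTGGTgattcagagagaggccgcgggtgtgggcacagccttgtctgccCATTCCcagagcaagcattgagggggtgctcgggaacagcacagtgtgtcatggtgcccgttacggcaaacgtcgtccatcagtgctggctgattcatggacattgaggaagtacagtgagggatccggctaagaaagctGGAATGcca
ITGA3_2, chr17:48115175-48115374: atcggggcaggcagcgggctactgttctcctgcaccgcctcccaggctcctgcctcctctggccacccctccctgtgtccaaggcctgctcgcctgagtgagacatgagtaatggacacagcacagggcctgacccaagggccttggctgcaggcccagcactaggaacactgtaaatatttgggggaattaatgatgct
IER5_6, chr1:181081719-181081918: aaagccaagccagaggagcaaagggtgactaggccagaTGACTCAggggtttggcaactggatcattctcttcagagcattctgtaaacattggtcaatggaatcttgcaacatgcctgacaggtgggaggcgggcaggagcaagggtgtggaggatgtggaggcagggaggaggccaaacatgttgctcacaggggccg
NFATC2_5, chr20:49977073-49977272: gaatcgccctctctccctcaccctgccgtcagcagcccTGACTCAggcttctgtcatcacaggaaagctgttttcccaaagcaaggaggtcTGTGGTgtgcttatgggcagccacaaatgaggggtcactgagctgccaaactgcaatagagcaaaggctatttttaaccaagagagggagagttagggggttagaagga
TMEM51_3, chr1:15505733-15505932: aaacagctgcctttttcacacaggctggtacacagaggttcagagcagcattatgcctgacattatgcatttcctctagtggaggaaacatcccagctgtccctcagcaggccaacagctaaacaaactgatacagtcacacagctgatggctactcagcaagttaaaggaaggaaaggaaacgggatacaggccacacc

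In these windows TGM2_5 held 2 TEAD matches and 1 RUNX match, IER5_6 held 1 AP-1 match, and NFATC2_5 held 1 AP-1 and 1 RUNX match. PRKCH_3, ITGA3_2 and TMEM51_3 held 0 matches to any of the 3 motifs, which says only that these letters were not in the window.

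Long chains were rare. The 14223 distal regions formed 12320 chains when single regions were counted as chains of 1, and 10788 of these were single. There were 1242 chains of 2 regions, 235 of 3, 36 of 4, 14 of 5, 4 of 6 and 1 of 8. The 19 chains of 5 or more lay on 13 chromosomes and spanned 22.48 to 58.59 kb, with a median of 34.69 kb and 673.9 kb in all. The regions themselves covered 9.761% to 21.64% of a span. Their width ran from 373 to 2243 bp with a median of 939 bp, and the 83 gaps between neighbours ran from 1066 bp in the VXN chain to 12398 bp in the UACA chain, with a median of 7051 bp. The nearest distal region beyond the end of any of these chains was 13520 bp away, just outside the limit.

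**Figure D1:**
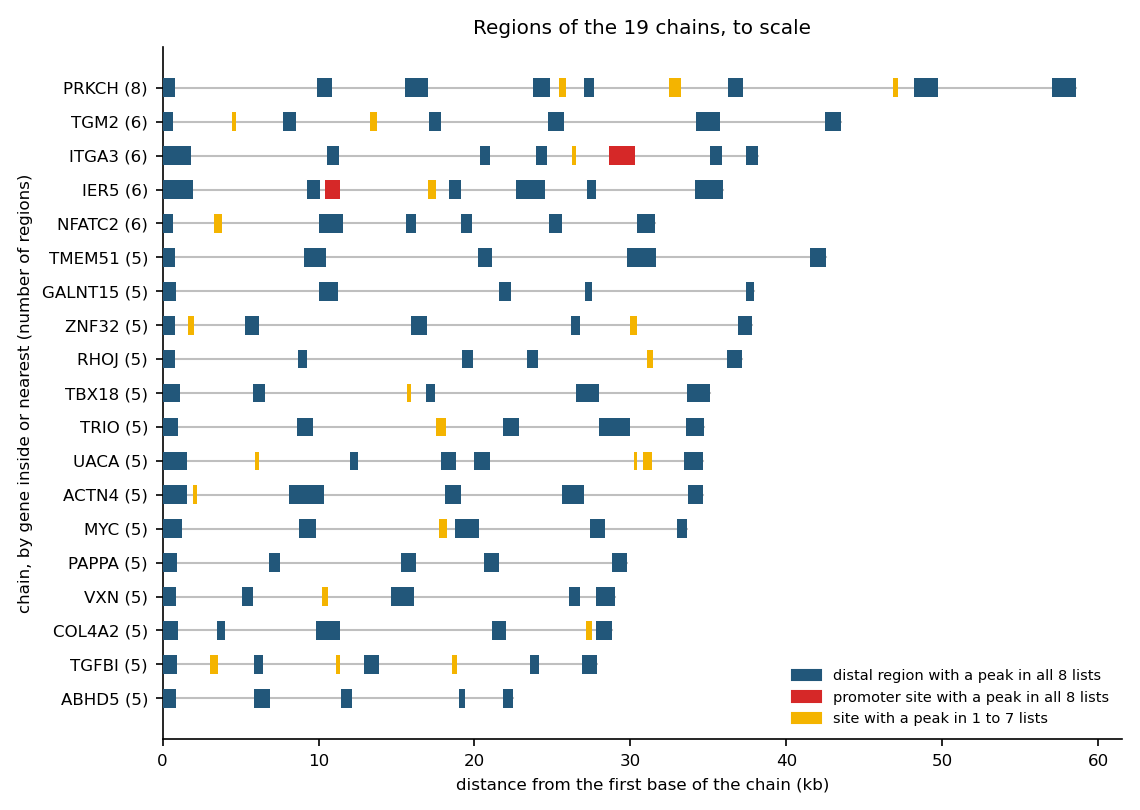
Maps of the 19 chains, drawn from the first base of each chain, with the distance along the chromosome in kb on the horizontal axis and 1 chain per row. Filled blocks are the regions with a peak in all 8 lists, and the other marks are sites missing from at least 1 list and promoter sites inside the span, with the PRKCH chain the longest at 58.59 kb and the ABHD5 chain the shortest at 22.48 kb.

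The chains were named after the protein-coding gene they overlapped or, failing that, the gene with the nearest protein-coding start. A total of 9 chains overlapped a named protein-coding gene and 10 did not. A protein-coding start lay inside the ITGA3, IER5, TRIO and ACTN4 chains, and the ITGA3 and IER5 chains each also contained a promoter site with a peak in all 8 lists. The longest chain had 8 regions in a span that overlapped PRKCH, the gene of protein kinase C eta, at chr14:62004105-62062696. Of these regions, 4 were in introns and 4 in exons of annotated transcripts, which need not be those of PRKCH. The noncoding genes LINC01303 and LINC03033 overlapped the same span. The chain of 6 regions at chr20:36738159-36781667 overlapped RPRD1B and TGM2, with all its regions in introns. TGM2 encodes a transglutaminase that cross-links matrix proteins. The ITGA3 chain, with 6 regions at chr17:48104286-48142450, ran from intergenic DNA into ITGA3, which encodes a laminin-binding integrin subunit. The IER5 chain, with 6 regions at chr1:181046776-181082690, held 5 intergenic regions around the immediate early gene IER5 and 1 region in an exon. The remaining chain of 6 regions, at chr20:49951906-49983454, was intergenic and lay 175.8 kb from the start of NFATC2, a calcium-regulated transcription factor.

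The other 14 chains held 5 regions each. The ACTN4 chain at chr19:39148306-39182961 lay in the gene of alpha-actinin 4, an actin cross-linker. The TRIO chain at chr5:14156536-14191221 had all 5 regions in introns of TRIO, a guanine nucleotide exchange factor. The RHOJ chain at chr14:63622199-63659344 ended 11.82 kb from the start of RHOJ, which encodes a small GTPase. The COL4A2 chain at chr13:110971922-111000741 had its 5 regions in introns of the gene of a basement membrane collagen. The TGFBI chain at chr5:135329074-135356938 was intergenic and ended 7.739 kb before the start of TGFBI, which encodes a matrix protein induced by TGF-beta. The TMEM51 chain at chr1:15485101-15527634 lay in introns. The GALNT15 chain at chr3:16144483-16182421 lay 33.77 kb from the start of an enzyme gene of mucin-type glycosylation, and the TBX18 chain at chr6:85327840-85362937 lay 110.1 kb from a mesenchymal T-box factor. The ZNF32 chain at chr10:44357708-44395507 was farthest from a protein-coding start, at 213.4 kb, and overlapped LINC00840.

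The other 5 chains were those of MYC, PAPPA, UACA, VXN and ABHD5. The chain nearest to MYC lay 160.9 kb from that proto-oncogene, with its 5 regions in introns of the noncoding gene PVT1, at chr8:128910872-128944469. The chain assigned to PAPPA, a protease that cleaves insulin-like growth factor binding proteins, lay at chr9:118685789-118715594 and 200.5 kb from its start. The UACA chain at chr15:70766813-70801495 was 193.1 kb from a protein-coding start, the VXN chain at chr8:67419445-67448474 was 13.58 kb from one, and the ABHD5 chain at chr3:43789156-43811639 was 29.99 kb from one. ABHD5 encodes a co-activator of lipid droplet lipolysis. Assignment by distance does not show which gene, if any, a chain acts on.

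Peaks at the starts of the chain genes were counted too. The share over all protein-coding genes is not at hand, so the counts describe these genes and set them apart from no others. A peak lay within 1 kb of a protein-coding start in all 8 lists for 11 of the 20 genes: GALNT15, IER5, ITGA3, MYC, NFATC2, RHOJ, RPRD1B, TBX18, TGFBI, TRIO and UACA. For ABHD5, ACTN4, PRKCH, TMEM51 and ZNF32 it was found in 7 lists, missing only in D2 soft replicate 1. It was found in 4 lists for TGM2, 3 for COL4A2, 2 for VXN and 0 for PAPPA.

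Of the gene lists drawn up for stellate biology, few members were assigned a chain of 5 or more regions. Such a chain was assigned to 1 of 32 collagen and matrix genes (COL4A2), 1 of 26 contractile and actin genes (ACTN4), 1 of 26 integrin and adhesion genes (ITGA3) and 1 of 28 TGF-beta pathway genes (TGFBI). It was assigned to 0 of 36 stellate and mesenchymal transcription factors, 0 of 17 AP-1 family genes, 0 of 27 YAP, TEAD and Hippo genes, 0 of 26 growth factors and receptors, 0 of 20 inflammatory mediators, 0 of 19 proteases and inhibitors and 0 of 28 ribosomal protein genes. Over all 19535 named protein-coding genes the number was 20, or 0.1024%. With chains of 3 or more regions, 314 of all genes (1.607%) had one. The shares were 23.08% for contractile and actin genes (6 of 26), 15.79% for proteases and inhibitors, 15.38% each for integrins and for growth factors, 11.11% for YAP, TEAD and Hippo genes and 10.71% for TGF-beta pathway genes, and 4 of 32 collagen and matrix genes had one. Lower shares were 5.0% for inflammatory mediators, 3.571% for ribosomal protein genes, 2.778% for stellate transcription factors and 0% for AP-1 family genes and for hepatic stellate cell markers. Leukocyte and macrophage markers had 8.333%, and hepatocyte, endothelial and cholangiocyte markers 0%. Of all 19535 genes only 6289 were assigned any distal region found in all lists. The numbers were 18 of 26 contractile and actin genes, 21 of 26 integrin genes, 17 of 19 proteases and inhibitors, 7 of 17 AP-1 genes and 5 of 28 ribosomal protein genes. Neither this nor gene length was matched between the lists, so the shares are a description.

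The lists were checked against cell type markers, again without the share over all protein-coding genes. A peak lay near a protein-coding start in all 8 lists for 7 of 14 hepatic stellate cell markers, among them PDGFRB, COL1A1 and ACTA2. For COL3A1, DES and DCN no list had one. The same held in all 8 lists for 1 of 12 hepatocyte, 0 of 11 endothelial, 2 of 12 leukocyte and macrophage and 0 of 12 cholangiocyte markers, where PECAM1 was not counted because no start was matched to it. A peak was found in 7 lists for the endothelial markers KDR, TIE1 and FLT1 and for the cholangiocyte markers SOX9, ELF3 and FXYD2.

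The lists held 29789 to 72840 peaks. The shortest was that of D2 soft replicate 1, whose median summit pileup at the sites found in all lists was 12 fragments against 22 to 44 in the other libraries. Because a region had to be in every list, that list weighed most on the selection. Without it, 56 chains and 316 regions met the rule, 7 of the 19 chains grew, 12 kept their size and 37 more chains appeared. Read totals were not used here, and the pileup was recovered from the deposited values of each peak. The word fragments stands here for the unit that the peak caller counted, which the sources used here do not give.

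The strength of the members was read as a rank, since the values of a peak caller are comparable only within a list. Each peak has a fold enrichment, the pileup at its summit over the local background of the same library, with 1 added to both. Each region was given its percentile among the 24246 sites found in all lists, separately in each library. By this measure the clustered regions ranked low. On day 2 their median percentile was 47.8 and 42.22 in soft and 43.06 and 35.59 in stiff libraries. On day 4 it was 38.13 and 37.97 in soft and 27.53 and 32.32 in stiff libraries. Single distal regions had medians of 49.41 to 53.98, regions in chains of 2 to 4 had 43.7 to 47.51, and promoter sites had 46.49 to 51.51. In 7 of the 8 libraries the clustered regions had the lowest median of the 4 classes, D2 soft replicate 1 being the exception. Their median was lowest in D4 stiff replicates 1 and 2, where the median pileup over all sites was highest, at 44 and 38 fragments. It was highest in D2 soft replicate 1, where that pileup was lowest, at 12. The part of depth in these ranks was not tested.

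By the pileup alone the clustered regions had the highest median of the 4 classes in each of the 8 libraries. It was between 61.43 and 67.56 in the 8 libraries, against 37.19 to 43.67 for single regions, 50.54 to 56.05 for chains of 2 to 4 and 56.05 to 62.48 for promoter sites. By the −log10 p of the peak it was 51.78 to 60.7, against 41.89 to 47.37 for single regions, 47.25 to 52.82 for chains of 2 to 4 and 52.41 to 59.24 for promoter sites. Promoter sites were above the clustered regions by this measure in D4 soft replicate 2 and in both D4 stiff libraries. The local background moved with the ranks by pileup. Divided by the lowest background in the same list, its median was 4.873 to 7.297 at clustered regions, 3.462 to 4.92 in chains of 2 to 4, 2.601 to 3.484 at single regions and 3.862 to 5.202 at promoter sites. The clustered regions thus had more fragments at their summits and also more fragments around them than single regions. Since membership rests on peaks in every list and on open neighbours within the gap limit, these are descriptions without a test. The part of the neighbours in the local background was not tested.

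**Figure D2:**
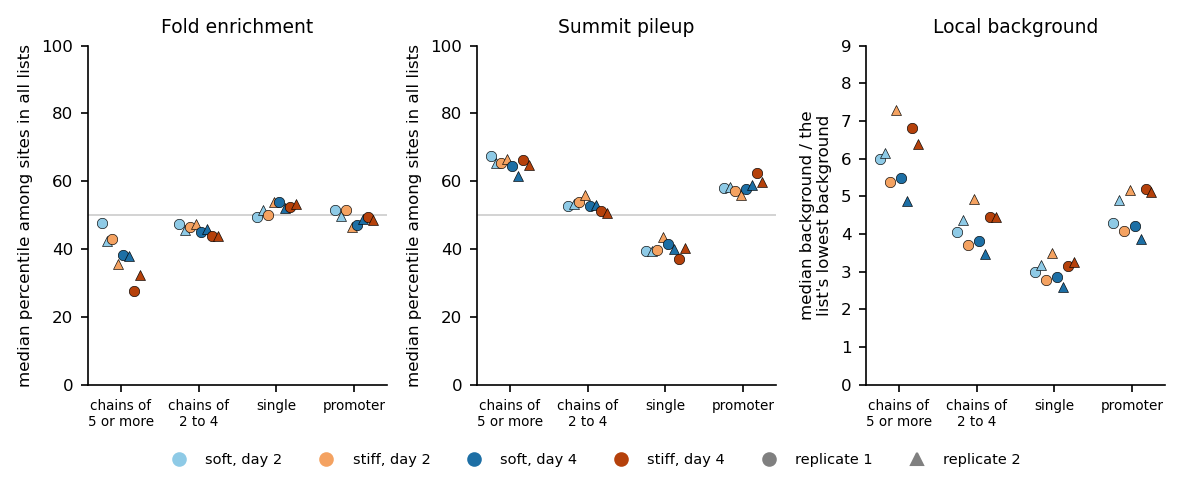
Median percentile by fold enrichment (left), median percentile by summit pileup (middle) and median local background over the lowest background of the list (right), by class of site on the horizontal axis, with 1 point per library. The clustered regions sit lowest by fold enrichment in 7 of the 8 libraries, at 27.53 to 47.8 over all 8, and highest by pileup at 61.43 to 67.56, and the grey line marks the 50th percentile.

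The TRIO chain carried this furthest. Its median background was 17.31 times the lowest of the list (13.95 to 20.24 over the libraries), and its median pileup percentile was 97.83 to 99.45 in every library, while its fold enrichment percentile was 41.86 to 79.64. The ITGA3 chain followed, with a background of 14.46 times the lowest and a pileup percentile of 86.95 to 92.91. At the other end the GALNT15 chain had a background of 2.15 times the lowest and a pileup percentile of 1.716 to 18.77. The RHOJ chain had a background of 2.843 times the lowest. The part of the background in these ranks was not tested.

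Within a chain the regions differed widely. Averaged over the 8 libraries, the fold enrichment percentile of the 102 regions ran from 1.902 to 98.21, with 35 above 50, 11 below 10 and 1 above 90, and the difference between the strongest and the weakest region of a chain was 28.91 to 86.71 with a median of 54.63. The strongest was NFATC2_5 at chr20:49976675-49977533, whose summit sequence is shown above. On day 2 its fold enrichment was 12.37 and 15.77 (soft) and 16.12 and 17.59 (stiff), on day 4 it was 16.45 and 15.64 (soft) and 14.66 and 17.06 (stiff), and it ranked at or above the 95.83 percentile in every library. Its neighbours NFATC2_3 and NFATC2_4 ranked at 11.5 and 18.3 on average. The weakest was IER5_5, with a fold enrichment between 3.139 and 5.07 in every library. ABHD5_3 at 89.2, RHOJ_1 at 85.8 and COL4A2_4 at 84.0 followed NFATC2_5, and VXN_4 at 3.04, ACTN4_2 at 4.30 and ITGA3_4 at 4.49 were close to IER5_5.

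**Figure D3:**
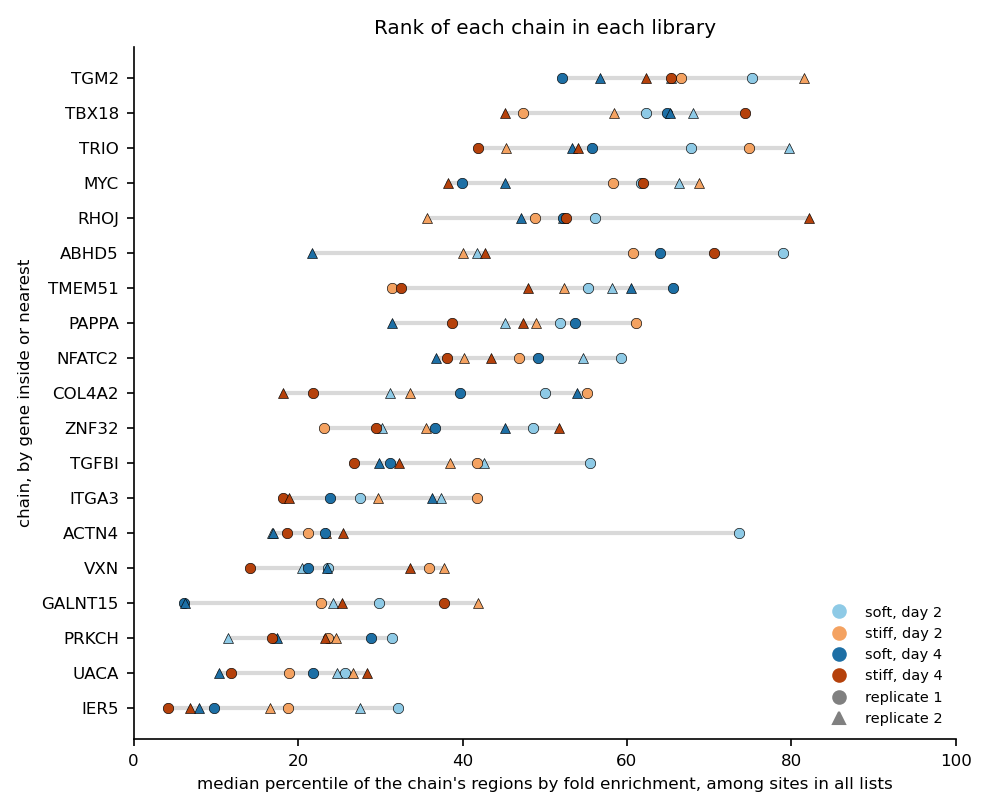
Median fold enrichment percentile of each chain in each library, with chains as rows and the percentile among the 24246 sites on the horizontal axis, where colours separate the 4 groups and symbols the 2 replicates. The IER5 chain lies lowest on average and its 4 day 4 points, at 4.236 to 9.803, are below its 4 day 2 points, at 16.62 to 32.17.

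The comparison of stiff with soft matrix asked whether these shared chains shifted in strength with stiffness. In the sentences that follow, values run from D2 soft through D2 stiff and D4 soft to D4 stiff, with replicate 1 before replicate 2 in each. The TGM2 chain stood highest of the 19, with median percentiles of 75.14, 65.32, 66.59, 81.51, 52.12, 56.68, 65.32 and 62.34, and its soft and stiff libraries overlapped. By pileup its 4 stiff libraries (71.46, 81.22, 72.04 and 73.81) were all above its 4 soft libraries (62.27 to 70.23). The TMEM51 chain had percentiles of 55.26, 58.21, 31.39, 52.36, 65.59, 60.51, 32.52 and 47.95. All its stiff libraries were below all its soft libraries, also by pileup, where they reached 20.74 to 28.24 against 32.61 to 49.93. The RHOJ chain had percentiles of 56.12, 52.22, 48.80, 35.66, 52.20, 47.17, 52.60 and 82.17, which overlapped, while by pileup its stiff libraries at 44.43 to 52.54 were narrowly below its soft libraries at 52.55 to 67.56. By pileup the groups were thus apart in 1 of the 19 chains with stiff above and in 2 with stiff below. The share of all chains with these patterns by pileup is not at hand, so they are not read as results about these chains.

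Over the 19 chains, 11 had a lower mean of the median percentiles on the stiff matrix and 8 a higher one. By the fitted mean score of a chain, described next, the difference was positive in 4 of the 19, beside 6193 of all 12320 chains. With ranks of −log10 p or of pileup it was positive in 11, beside 5712 and 5732 of all chains. By fold enrichment percentile the groups did not overlap in 0 chains with stiff above soft and in 1 with stiff below (TMEM51). Over all 12320 chains these patterns took 2.02% and 1.97% by the same measure. Among the 102 regions, 0 had all stiff libraries above all soft ones and 2 had them below (TMEM51_5 and IER5_1), against 1.88% and 2.12% of all 24246 sites. TMEM51_5 had percentiles of 71.89, 58.21, 29.33, 52.36, 65.59, 70.33, 53.19 and 47.95, and IER5_1 had 88.06, 44.22, 23.73, 27.08, 36.45, 31.48, 14.40 and 22.20. The member counts are to be read against these shares.

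The ranks were turned into normal scores and fitted with limma over all 24246 sites, with p-values adjusted by the Benjamini-Hochberg method. At an adjusted p under 0.05, 0 of the 102 regions were called for stiff minus soft on day 2, on day 4 and over both days, where 0.00412%, 0.00825% and 0.00825% of all sites were. At an unadjusted p under 0.05 there were 5 regions on day 2 (background 7.65%), 5 on day 4 (5.35%) and 2 over both days (7.72%). The median pileup at the sites found in all lists was 12 to 28 fragments in soft and 22 to 44 in stiff libraries. The part of depth in the differences was not tested. Over both days 36 of the 102 differences were positive, beside 11748 of all 24246 sites. The median was −0.13 on the normal score scale, beside −0.02 over all sites. That median was 0.03 with ranks of −log10 p and 0.02 with ranks of pileup, so its sign depended on which value was ranked. For the mean scores of whole chains, fitted over all 12320, 0 of the 19 were called on day 2, on day 4 or over both days (background 0.00812%, 0% and 0.00812%), and 1 had an unadjusted p under 0.05 in each (7.95%, 5.34% and 7.73%).

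The chain differences over both days ran from −0.35 to 0.11. The IER5 chain had the lowest, at −0.35 (SE 0.15, limma adjusted p = 0.586), followed by TRIO at −0.29 (SE 0.17, adjusted p = 0.696) and TMEM51 at −0.27 (SE 0.16, adjusted p = 0.712). The highest were RHOJ at 0.11 (SE 0.17, adjusted p = 0.901), GALNT15 at 0.10 (SE 0.16, adjusted p = 0.905) and TGM2 at 0.09 (SE 0.14, adjusted p = 0.915). None of these passed the threshold, and over the alternative settings the RHOJ and GALNT15 values reached −0.03 and −0.07. The order depended on the value ranked. By pileup the TBX18 chain was lowest at −0.32 (SE 0.11, adjusted p = 0.249), followed by TMEM51 at −0.27 (adjusted p = 0.396), while IER5 and TRIO were at −0.12 and −0.10. By −log10 p the TBX18 chain was also lowest, at −0.32 (adjusted p = 0.501). The GALNT15 chain had a percentile of 29.83, 24.23, 22.76 and 41.89 on day 2, and 6.098 and 6.306 in D4 soft beside 37.78 and 25.40 in D4 stiff. The difference of its stiffness effects between the days was not called by limma in any setting (adjusted p from 0.808).

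A pair of regions, picked after their values were seen, stood out. RHOJ_2 had a fold enrichment of 6.159, 6.007, 7.599, 9.106, 9.756, 4.476, 10.49 and 14.7, and its stiff minus soft difference on day 4 was 1.65 (SE 0.59, limma adjusted p = 0.921), with 0.629 to 2.66 over the alternative settings. TRIO_4 had a fold enrichment of 3.762, 4.087, 8.192, 7.309, 6.292, 7.124, 3.936 and 6.413, with a difference of 1.54 on day 2 (SE 0.51, adjusted p = 0.505) and −1.18 on day 4 (adjusted p = 0.921). Its effects on the 2 days differed by −2.72 (SE 0.72, adjusted p = 0.804). Over the alternative settings the day 2 difference ran from −0.342 to 1.81 and that between the days from −3.31 to 0.343, so both changed sign. TRIO_4 is a region of 2009 bp with more than 1 summit. The strongest peak lay 1331 to 1429 bp from the start of the region in both D2 soft libraries and D4 stiff replicate 1, and 535 to 548 bp from it in the other 5 libraries, so the low and the high values belonged to different summits. In 10 of the 102 regions (9.804%) the summits of the libraries lay more than 500 bp apart, beside 11.23% of all sites.

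**Figure D4:**
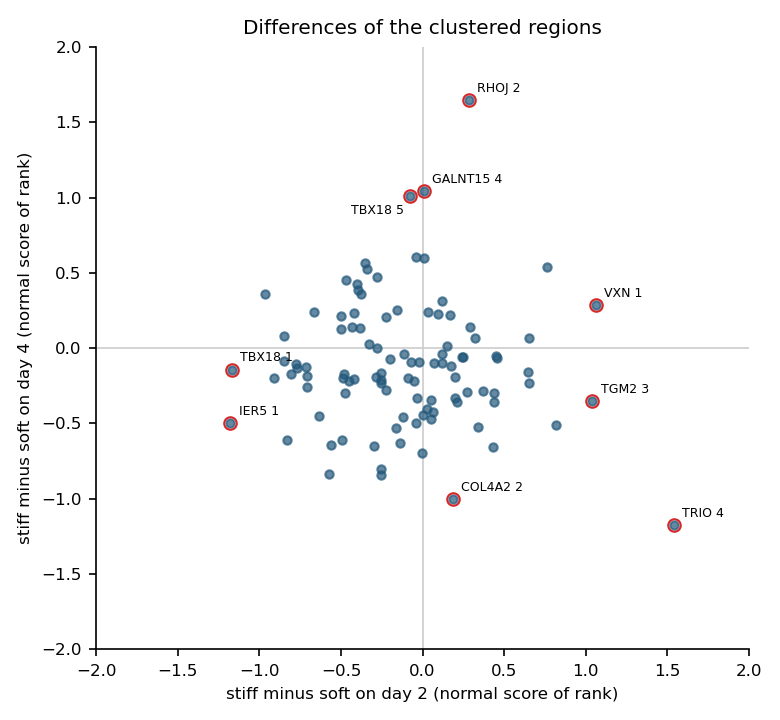
Stiff minus soft difference of the normal score on day 2 (horizontal axis) and on day 4 (vertical axis) for the 102 regions, 1 point per region, with red circles around the labelled regions, whose unadjusted limma p was under 0.05 on either day. TRIO_4 lies at 1.54 and −1.18 and RHOJ_2 lies at 0.28 and 1.65, with 0 regions called by limma on either day.

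Day 4 was compared with day 2 in the same fits. The median pileup at the sites found in all lists was 12 to 29 fragments on day 2 and 24 to 44 on day 4. The part of depth in these differences was not tested. For 76 of the 102 regions the difference was negative and for 26 it was positive, beside 11609 positive of all 24246 sites. The median over the members was −0.24 beside −0.02 over all sites. It was −0.12 without D2 soft replicate 1, −0.04 with ranks of −log10 p and −0.06 with ranks of pileup. Over the chains, 15 of 19 had a lower mean percentile on day 4. By the fitted mean score 2 of the 19 differences were positive, beside 6284 of all 12320 chains. In 0 chains were all day 4 libraries above all day 2 libraries and in 2 (IER5 and TGFBI) they were below, where 1.9% and 1.83% of all chains were. Among regions the counts were 0 and 4 (IER5_3, PRKCH_2, ITGA3_6 and ABHD5_4), beside 1.68% and 1.98% of all sites. By limma 0 of 102 regions and 0 of 19 chains were called, and 0% of sites and of chains were called over each table. At an unadjusted p under 0.05 there were 9 regions, 1 of them higher on day 4 (background 6.91%), and 4 chains, all lower (7.09%). The interaction of stiffness with day was called in 0 regions and in 0% of sites, with 1 region at an unadjusted p under 0.05 (background 5.27%).

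The IER5 chain had the largest day difference of the 19. Its median percentile was 32.17, 27.54, 18.80 and 16.62 on day 2 and 9.803, 7.939, 4.236 and 6.893 on day 4, so the days did not overlap. The day difference of its mean score was −0.62 (SE 0.15, limma adjusted p = 0.477). Its adjusted p was 0.0298 without D2 soft replicate 2, the one setting in which any of the 19 chains was called, and reached 0.963 in others. By pileup its days overlapped, with percentiles of 55.41 to 67.93 on day 2 and 53.97 to 60.15 on day 4, and the difference was −0.25 (adjusted p = 0.703). The region IER5_3 had a fold enrichment of 6.084, 9.115, 9.349 and 8.693 on day 2 and 6.735, 4.995, 5.88 and 7.26 on day 4, with a day difference of −1.13 (SE 0.34, adjusted p = 0.602). The TGFBI chain had percentiles of 55.49, 42.65, 41.81 and 38.47 on day 2 and 31.18, 29.79, 26.79 and 32.25 on day 4, with a difference of −0.30 (SE 0.18, adjusted p = 0.753). By pileup the TGFBI days overlapped and the difference was −0.07 (SE 0.12, adjusted p = 0.969).

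By fold enrichment percentile the soft and stiff libraries overlapped in every chain except TMEM51, and 7 more of these chains are described here. Of these 7, ITGA3, COL4A2 and ACTN4 were those with a gene of the fixed lists. The ITGA3 chain had percentiles of 27.57, 37.33, 41.81, 29.72, 23.89, 36.35, 18.17 and 18.88, lowest in both D4 stiff libraries. The COL4A2 chain had 50.02, 31.18, 55.12, 33.67, 39.65, 53.92, 21.80 and 18.17, and was again lowest in D4 stiff. By pileup neither chain was lowest there, since the D4 stiff libraries had 89.94 and 88.25 for ITGA3 and 86.28 and 83.48 for COL4A2, and the lowest were 86.95 in D2 soft replicate 1 and 72.87 in D2 soft replicate 2. The ACTN4 chain had 73.64 in D2 soft replicate 1 and 16.88 to 25.42 in the other 7 libraries. The PRKCH chain ranged from 11.52 to 31.42, the NFATC2 chain from 36.73 to 59.33, the TBX18 chain from 45.20 to 74.39 and the ZNF32 chain from 23.12 to 51.75. For these 7 chains the limma adjusted p for stiff minus soft over both days was between 0.697 and 0.969.

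The same stretches also contained sites that were not in every list, which the rule did not use. There were 23 of them inside the 19 spans, 8 in a single list, 5 in 2 to 4 lists and 10 in 5 to 7 lists. The list of D2 soft replicate 1 had 0 of them, D2 soft replicate 2 had 9, the D2 stiff libraries 14 and 19, the D4 soft libraries 12 and 8, and the D4 stiff libraries 12 and 11. In 19 of the 23 (82.61%) more stiff than soft lists held the site, beside 66.63% of all 78120 such sites, and in 0 more soft lists did, beside 20.44%. Without D2 stiff replicate 2 the first number was 9. A total of 0 were in all 4 stiff lists and no soft list, a pattern of 0.8218% of all such sites. With lists cut to equal length, 8 such sites lay inside the spans and 2 of them were in more stiff lists. The soft lists had 29789 to 63272 peaks and the stiff lists 59277 to 72840. The longest lists, D4 stiff replicates 1 and 2 with 65905 and 72840 peaks, held fewer of the 23 sites than the D2 stiff lists. The part of list length in this count was not tested.

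The place of the regions differed somewhat from that of other distal regions. Of the 102, 48 (47.06%) were in introns, 10 (9.804%) in exons and 44 (43.14%) between genes, while single regions were 59.44% intronic, 4.329% exonic and 36.23% intergenic. Regions of 1 chain share a gene, so these shares rest on 19 loci. The median GC content around the summit was 49.0% in clustered and 46.5% in single regions, beside 63.5% at promoter sites. Median widths were 939 bp for clustered and 882 bp for single regions.

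Motif letters of AP-1, TEAD and RUNX within 200 bp around the summit had shares close to those of other distal regions and far from those of promoter sites, which is a description with no test. An AP-1 match was found in 38 of 102 clustered regions (37.25%), 38.37% of regions in chains of 2 to 4, 41.02% of single regions and 9.947% of promoter sites. A TEAD match was found in 21 regions (20.59%), beside 24.87%, 22.57% and 10.39%, and a RUNX match in 20 (19.61%), beside 20.73%, 20.39% and 8.221%. Any of the 3 was present in 64 regions (62.75%), beside 64.57%, 65.08% and 24.31%, and AP-1 and TEAD occurred together in 6 (5.882%), beside 7.951%, 7.916% and 1.846%. In a smaller window of 100 bp in all, centred on the summit, the shares of clustered and single regions were farther apart for AP-1 (18.63% and 25.31%) and RUNX (17.65% and 11.23%). TEAD had 12.75% and 12.93% there. The AP-1 and RUNX shares of the clustered regions in this window rest on 19 and 18 regions. Each summit was that of the library where the region ranked highest, which was D2 soft replicate 1 for 38 of the 102. Promoter motifs were scarce: CCGGAA (ETS) was found in 2.941% and GGGCGG (GC box) in 5.882% of clustered regions, while promoter sites had 21.06% and 50.6%. A CTCF match was found in 4 regions (3.922%) and in 1.641% of single regions. TTGCGCAA (C/EBP) was found in 1 region, the CArG box in 1 and the NF1 palindrome in 0. All motifs were searched on both strands.

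AP-1 matches were spread over the chains. They occurred in 16 of the 19, with 0 in the ACTN4, MYC and COL4A2 chains and 4 regions each in PRKCH, TBX18 and TRIO. In the TBX18 chain 4 of 5 regions held AP-1 and 2 held TEAD letters, and TRIO_3 and TRIO_5 each held 2 AP-1 matches. TEAD matches occurred in 12 chains and RUNX matches in 13. PRKCH_4 held 3 TEAD matches, the most of any region. A match describes letters and not binding.

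**Figure D5:**
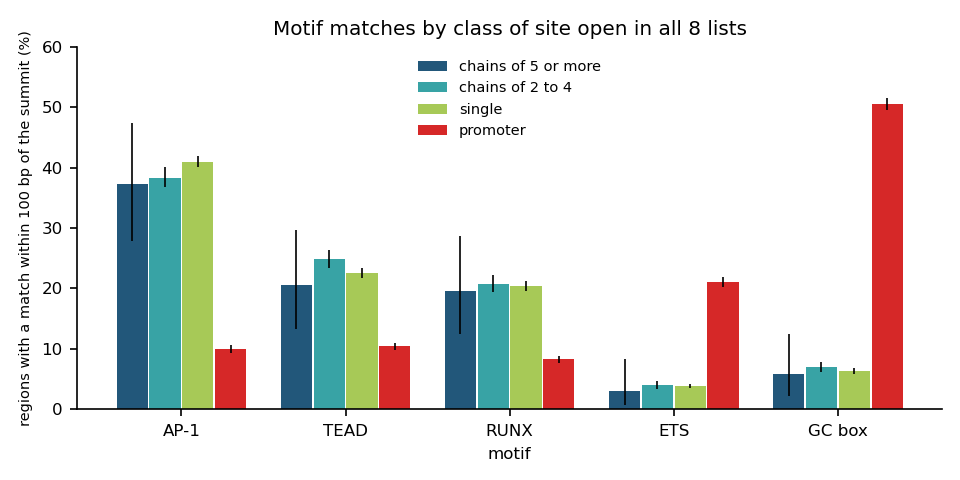
Share of sites (percent, vertical axis) with motif letters within 200 bp around the summit, by motif on the horizontal axis and by class of site (bars from 0). The bars of the clustered regions, 37.25% for AP-1, 20.59% for TEAD and 19.61% for RUNX, lie beside those of single regions at 41.02%, 22.57% and 20.39%.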

How the data were processed

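ATAC-seq was performed on 8 LX-2 libraries, 2 per group. Per the labels and the methods of the study, reads were trimmed with Trim Galore, mapped to hg19 with Bowtie2 (2.4.1), and peaks were called in each library with MACS2 at a q threshold of 0.05. The labels also name bedtools (2.24.0) and Picard, for which the methods give a use only in other assays. Insertion offsets, the treatment of duplicates and other options of the caller are not given for ATAC-seq in the sources used here, and replicates were not pooled. The authors deposited 1 peak list per library. In these lists, as the authors deposited them, fold enrichment is the ratio between summit pileup and local background of that library, with 1 added to both. The −log10 p and −log10 q deposited by the authors refer to the same background, the score deposited by the authors is 10 times the −log10 q as a whole number and was not used, and the other column, deposited by the authors, locates the summit relative to the start of the peak.

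Peaks of the 8 lists were merged where they shared at least 1 bp. Transcription starts were the 220784 distinct starts of GENCODE release 44 on GRCh37. Where a library had several peaks in a region, the one with the highest fold enrichment and its summit were used. The pileup and the background were recovered from fold enrichment and p for 99.997% of peaks, within 0.002 of the −log10 p. Values were ranked within each library over 24246 sites, turned into normal scores and fitted with limma (3.58.1, R 4.3.3) with 4 group means, and p-values were adjusted by the Benjamini-Hochberg method. Chains were fitted on their mean score over 12320 chains. The planned trend of the variance on chain size could not be fitted, so the variance was scaled by a regression line on log2 chain size. The fits were also run on simulated libraries with Poisson pileups and a fixed added spread. That spread was not taken from these libraries, so the simulation does not measure the power of the fits here. The methods call replicates of the sequencing experiments biological, and the sources used here do not say whether they were separate cultures, so p-values measure the spread between these libraries.

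The rule, the chains, the gene lists, the markers and the motifs were chosen with earlier results of these data known. Chains described by name were the 10 with the most regions, the 3 with the largest and the 3 with the smallest stiff minus soft difference, and those of listed genes. Other chains and single regions were picked after their values were seen. Same-numbered replicates did not deviate together (correlations −0.0414 to 0.0837), so the numbers were not used as pairs. Alternatives were other gaps, start distances, chain sizes, list lengths, ranked values, motif windows, and leaving out each library.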

Additional observations from a re-analysis of the deposited data

Results flagged for a closer look

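Of 44 groups of 4 libraries tested by the gap of the most extreme library to its neighbour, 2 stood apart. Chance gives about 1 in 20 for values drawn alike. Each group here held libraries of both days, so that rate is only a guide. The ACTN4 chain had a median fold enrichment percentile of 73.64 in D2 soft replicate 1, the library with the shortest list, and the gap was 0.887 of the range of the 4 soft libraries. The PRKCH chain had 16.78 in D4 stiff replicate 1, and the gap was 0.837 of the range of the 4 stiff libraries. The cause of either value was not tested.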

How the results depend on the processing

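The number of chains and regions depended on the rule: 1 chain and 5 regions with gaps up to 5 kb, 98 and 561 with gaps up to 25 kb, 11 and 57 with centres over 2.5 kb from a start, 3 and 15 with lists of equal length, 55 and 246 with chains of 4 or more, and 1 and 8 with chains of 8 or more. Leaving out 1 library gave 18 to 56 chains and 97 to 316 regions, the highest without D2 soft replicate 1. With an overlap of 50 bp, protein-coding starts, a q of at most 0.001 or, chosen after seeing the data, basic transcripts only, the counts were within 1.5 times.

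Leaving out 1 library, the median difference over the clustered regions was −0.237 to −0.00675 on day 2 (least without D2 soft replicate 1, most without D2 stiff replicate 1), −0.22 to −0.0931 on day 4, −0.203 to −0.0883 over both days and −0.324 to −0.117 for day 4 minus day 2. With ranks of −log10 p and of pileup it was 0.0764 and 0.0735 on day 4, 0.0309 and 0.0217 over both days, and −0.0422 and −0.0573 between days. The mean difference in percentile from single regions was 10.96 by −log10 p and 25.02 by pileup, and from chains of 2 to 4 it was 6.958 and 12.32, all opposite in sign to fold enrichment. The AP-1, TEAD and RUNX shares were 60.78%, 62.75% and 57.84% over whole regions. In a window of 100 bp in all they were 18.63%, 12.75% and 17.65%. Sites not in all lists numbered 8 with lists of equal length, 2 of them in more stiff lists. Leaving out 1 library gave 9 to 23 in more stiff lists, the lowest without D2 stiff replicate 2.

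The replicate block called 0 regions and 0 chains and changed no call. No region was called in any setting. Leaving out 1 library called 0 to 1 of the 19 chains between days, 1 without D2 soft replicate 2, where the whole tables also had most calls (359 sites and 140 chains on day 2). The median pileup at the sites found in all lists was lowest in D2 soft replicate 1, at 12 fragments, and the part of depth in the ranks was not tested.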
